A study of Mus musculus with 31 samples.

Results

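The transcripts of 10 genes that tumour cells can use to restrain immune cells were examined in Panc02 cells, a murine pancreatic adenocarcinoma line. These genes encode ligands of inhibitory or costimulatory receptors (Cd274, Pdcd1lg2, Cd80, Cd276, Cd47, Pvr, Nectin2 and Lgals9) and the enzymes that turn extracellular ATP into adenosine (Entpd1 and Nt5e). They were taken by symbol from all 3 count tables of the series, and each symbol had 1 row among the 55487, 56980 and 56941 genes listed for the conditioned media, the 2D and 3D cultures and the rescue experiment. Of the 10 genes, 8 passed the filter on low counts in the conditioned media and in the 2D and 3D tables, and all 10 passed it in the rescue table. Pdcd1lg2 and Entpd1 did not pass it in the first 2 tables.

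In the first experiment, wild-type Panc02 spheroids in Matrigel were kept in control medium (Ctrl), in medium conditioned by untreated bone marrow-derived macrophages (M0-CM) or in medium conditioned by macrophages given IFNγ and LPS (M1-CM), with 3 samples in each group. In the second, WT and Cxcl5-/- cells were cultured on plastic (2D) or as spheroids (3D), again with 3 samples in each group. In the third, referred to as the rescue experiment, WT and Cxcl5-/- spheroids (2 samples each) were compared with Cxcl5-/- spheroids overexpressing a stabilized mutant Hif1α (Hif1aOE) or Myc (MycOE), with 3 samples each, so that both overexpression lines also carry the Cxcl5 deletion. The deletion was made with a lentiviral CRISPR vector, and whether the Cxcl5-/- cells are 1 clone is not stated in the sources used here. The study describes its replicates in general as biological, but the labels do not tie the sequenced samples of a group to separate cultures, so the p-values measure the spread between these samples, which may be technical.

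Total counts per sample ran from 41542533 to 78498230. The Cxcl5 transcript, given in CPM (gene counts relative to the TMM-scaled library total), was at 45.6, 47.3 and 49.1 in 2D WT and at 37.4, 32.7 and 32.8 in 2D Cxcl5-/-, but at 28.5, 24.5 and 28.0 in 3D WT and at 65.5, 40.9 and 45.4 in 3D Cxcl5-/-. In 3D it therefore went against the label in that table (log2 fold change 0.91, SE 0.14, adjusted p = 0.00017), whereas in the rescue table it was at 64.2 and 67.7 CPM in WT and at 36.6 and 40.2 CPM in Cxcl5-/- spheroids. A transcript level need not show a CRISPR deletion, and the groups are called by their labels throughout. Myc rose 4.54 on the log2 scale in MycOE over Cxcl5-/- spheroids, and Hif1a rose 0.94 in Hif1aOE and 0.90 in MycOE. Mean Hif1a levels were 139 CPM in rescue Cxcl5-/-, 266 CPM in Hif1aOE, 258 CPM in MycOE and 314 CPM in rescue WT. The Hif1a transcript in Hif1aOE was thus not above that of WT and was close to that of MycOE. Among 13 macrophage and leukocyte markers, between 2 and 9 were at the floor (3 counts or fewer in every library) in each group, the defining macrophage marker Adgre1 was at the floor in every group except rescue WT (mean 0.59 CPM), and the summed level ran from 28.1 to 77.2 CPM, with Cd14 the highest. The epithelial keratin genes Krt8 and Krt18 were counted in every group, whereas the duct marker Krt19 had a mean of 43.7 CPM in 3D WT and 0.39 CPM in 2D WT and was at 0 in 2D Cxcl5-/-. Over 8 epithelial markers, the sum was at 853 to 1097 CPM in 3D WT and at 217 to 236 CPM in 3D Cxcl5-/-, and most of it was Krt8 and Krt18.

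PD-L1 (Cd274) and PD-L2 (Pdcd1lg2) bind PD-1 on T cells, and CD80 binds CD28 and CTLA-4. CD155 (Pvr) and CD112 (Nectin2) are ligands of the activating receptor DNAM-1 and the inhibitory receptor TIGIT on T and NK cells, CD47 gives phagocytes a signal through SIRPα not to engulf the cell, and galectin-9 (Lgals9) has been described as a TIM-3 ligand. CD39 (Entpd1) converts extracellular ATP and ADP to AMP, and CD73 (Nt5e) converts AMP to adenosine, which acts on receptors of leukocytes.

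The genes lie on 5 chromosomes of the mouse genome (GRCm38, GENCODE vM21). Cd274 (chr19:29367455-29388095, plus strand) and Pdcd1lg2 (chr19:29410919-29471161, plus strand) are neighbours 22.8 kb apart, and Entpd1 (chr19:40612366-40741602, plus strand) is on the same chromosome. Nectin2 (chr7:19716644-19750483, minus strand) and Pvr (chr7:19903578-19921160, minus strand) are 153.1 kb apart. Cd276 (chr9:58524298-58555437, minus strand) and Nt5e (chr9:88327197-88372092, plus strand) share a chromosome, as do Cd80 (chr16:38455561-38496335, plus strand) and Cd47 (chr16:49800533-49915010, plus strand), and Lgals9 is at chr11:78962974-78984946 on the minus strand. An antisense transcript (AC119228.1) shares 511 of the 3622 exon bases of Cd274, Gm10657 on the opposite strand shares 416 of the 3658 exon bases of Cd276, and an antisense transcript (Gm20512) shares 135 of the 3494 exon bases of Nectin2. The libraries were stranded, but whether strand was used in counting is not stated, so reads of these stretches may be shared with the partner.

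Promoter windows from RefSeq (GRCm38.p6, from 250 bases before to 50 bases after the annotated start) were found for 9 of the 10 genes, and Pvr had no entry. The windows were searched on both strands for ACGTG and GCGTG (the core of a hypoxia response element), CACGTG (the E-box bound by Myc and Max), TTCNNNGAA (a STAT site), GAAANNGAA (bound by interferon regulatory factors) and GGGNNTTCC (bound by NF-kB). ACGTG and GCGTG differ only in their first letter, and every CACGTG also holds ACGTG. The 3 windows printed here are those of the ligand that rose most in 3D (Cd274), of a second ligand with the same interferon-type motif (Lgals9) and of Cd47, which holds both hypoxia-type cores before its start. Bases of the windows that lie in annotated exons of the gene itself are left out, and the rest is shown 5′ to 3′ on the strand of the gene, with the motif matches in capitals. The Cd47 window lies inside the annotated gene, since another annotated transcript starts further upstream.
Cd274, chr19:29367188-29367437, plus strand: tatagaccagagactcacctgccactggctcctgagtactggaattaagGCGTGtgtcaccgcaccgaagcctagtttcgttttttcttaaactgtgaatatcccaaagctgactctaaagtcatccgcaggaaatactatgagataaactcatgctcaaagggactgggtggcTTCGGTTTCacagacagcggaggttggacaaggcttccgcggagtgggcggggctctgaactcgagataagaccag
Lgals9, chr11:78984947-78985174, minus strand: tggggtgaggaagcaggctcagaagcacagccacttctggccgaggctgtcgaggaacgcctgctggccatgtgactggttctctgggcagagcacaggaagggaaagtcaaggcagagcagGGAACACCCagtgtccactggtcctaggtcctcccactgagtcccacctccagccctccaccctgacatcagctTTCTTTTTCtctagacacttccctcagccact
Cd47, chr16:49855404-49855632, plus strand: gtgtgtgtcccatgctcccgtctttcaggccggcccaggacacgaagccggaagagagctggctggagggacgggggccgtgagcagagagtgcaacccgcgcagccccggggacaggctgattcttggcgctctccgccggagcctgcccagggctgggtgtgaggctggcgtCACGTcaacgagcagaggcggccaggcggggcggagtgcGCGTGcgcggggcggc

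In Cd274 the capitals mark a GCGTG 201 bases and an interferon-type motif (GAAANNGAA read on the reverse strand) 76 bases before the start, and 185 of the 250 bases lie in an exon of another annotated gene. In Lgals9 they mark an NF-kB-type motif 128 bases and an interferon-type motif 54 bases before the start, both on the reverse strand. In Cd47 they mark ACGTG as its reverse complement 76 bases and GCGTG 37 bases before the start. Further matches in these windows lay in bases not printed, among them an ACGTG at base 40 past the start of Cd274, whose window thus also holds both hypoxia-type cores. GCGTG was also found in the windows of Nectin2, Cd276, Nt5e and Entpd1 and GGGNNTTCC in that of Nectin2, no member window held CACGTG or TTCNNNGAA, and the windows of Cd80 and Pdcd1lg2 held none of the motifs. Of the 32851 promoter windows in the table, 32.4% held GCGTG, 19.6% ACGTG, 7.2% CACGTG, 8.3% TTCNNNGAA, 8.6% GAAANNGAA and 5.8% GGGNNTTCC, so that matches of this kind are common.

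Levels of different genes were compared as CPM per kilobase of exon. In 3D WT, Cd47 was highest at 31.3 ± 3.15 (SD, n = 3), next to Pvr at 28.7 ± 2.78, and these overlapped within their spread. A group of intermediate genes followed, with Nectin2 at 7.43 ± 0.93, Nt5e at 6.72 ± 0.18, Lgals9 at 5.76 ± 0.71, Cd276 at 4.98 ± 0.47 and Cd80 at 3.65 ± 0.42 CPM per kilobase. Cd274 stood at 2.13 ± 0.19, while Entpd1 (0.028) and Pdcd1lg2 (0.016) were close to 0. In 2D WT, Cd47 led at 18.0 ± 1.66, Pvr was at 5.98 ± 0.21, Nt5e was at 1.08 ± 0.081 and Cd274 at 0.17 ± 0.091 CPM per kilobase, with Entpd1 and Pdcd1lg2 at 0 counts in all 3 libraries.

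**Figure D1:**
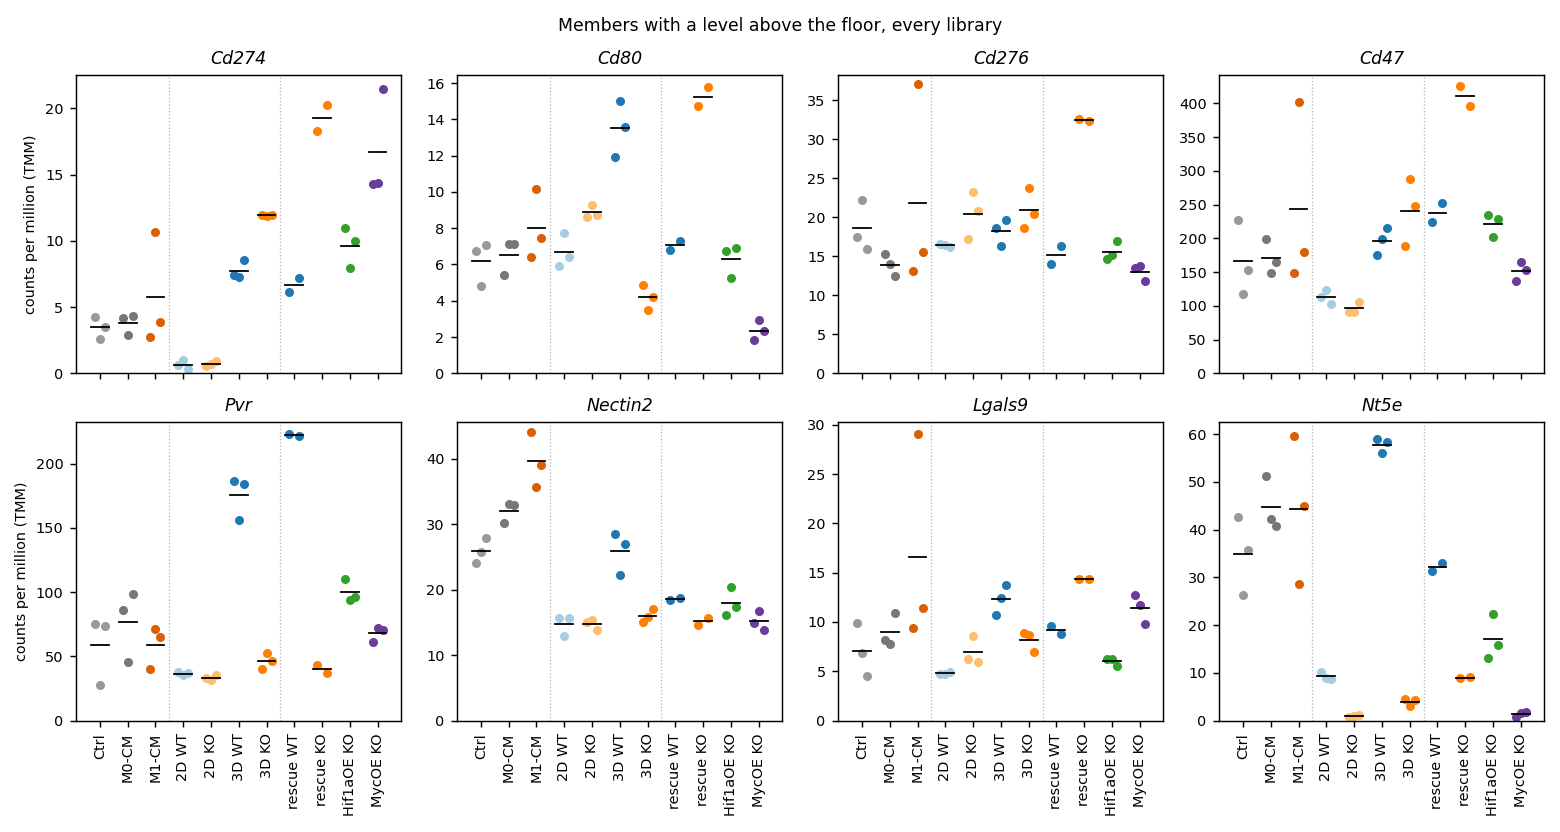
CPM after TMM scaling (linear axis from 0) of the 8 genes that passed the filter in every table, in all 31 libraries. Each point is 1 library, the black line is the group mean, KO stands for Cxcl5-/-, and dotted lines separate the 3 tables. Pvr and Nt5e were higher in 3D WT than in 3D KO and higher in rescue WT than in rescue KO. By contrast, Cd80 was low in 3D KO (3.50 to 4.84 CPM) and high in rescue KO (14.7 and 15.8 CPM). The level of Pvr in WT spheroids differed between tables. Pvr was at 27.5 to 75.5 CPM in Ctrl, 156 to 186 CPM in 3D WT and 222 to 223 CPM in rescue WT. Its range in Ctrl overlapped that in 3D KO (40.3 to 52.5 CPM), and the cause was not tested.

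The conditioned media experiment asked how macrophage products act on the spheroids. Per the methods of the study, macrophage media were collected in DMEM with L929 cell supernatant, and the control was DMEM matched for serum. In comparisons with Ctrl, effects of macrophage products and of that supernatant therefore cannot be told apart. M1-CM changed none of the 8 tested genes past the threshold (adjusted p under 0.05 over all 19207 genes tested) against Ctrl, where 3 genes in all were called (0.0156% of those tested), and the count was also 0 of 8 for M0-CM against Ctrl (0% of all genes called) and for M1-CM against M0-CM (0.0156%). Nectin2 came closest. Its level was 24.1, 25.8 and 27.9 CPM in Ctrl, 30.2, 33.1 and 32.99 in M0-CM and 44.1, 35.6 and 39.1 in M1-CM, and the groups did not overlap, which held for 8.49% of all genes between M1-CM and Ctrl, 8.35% between M0-CM and Ctrl and 7.87% between M1-CM and M0-CM. This amounted to a log2 fold change of 0.61 (SE 0.14) between M1-CM and Ctrl with an unadjusted p = 0.0014 and an adjusted p = 0.54 in edgeR's quasi-likelihood test, while the Wald test of DESeq2 called it (0.61, adjusted p = 0.0050). At an unadjusted p under 0.05, 2 genes (Nectin2 and Lgals9) differed between M1-CM and Ctrl, as did 586 genes upward and 317 downward among all 19207 tested. It was 0 of the 8 in each of the other comparisons of media. DESeq2 called 1 of these genes for M1-CM against Ctrl, where it called 74 up and 31 down among all 30317 genes it tested. It called 0 of them for M0-CM against Ctrl (18 up and 4 down among all genes) and for M1-CM against M0-CM (22 up and 12 down).

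Cd274, the PD-L1 gene, was at 4.26, 2.60 and 3.51 CPM in Ctrl, at 4.17, 2.89 and 4.34 CPM in M0-CM and at 2.74, 10.7 and 3.84 CPM in M1-CM. A single library, M1-CM replicate 2, lay above all others. The same library was highest for Lgals9 (9.40, 29.1 and 11.4 CPM in M1-CM against 9.91, 6.81 and 4.52 in Ctrl), Cd47 (148, 402 and 180 CPM), Cd276 (13.1, 37.1 and 15.5 CPM) and Cd80 (6.39, 10.2 and 7.44 CPM), and it had the lowest total count of its table (43875429). Without it, the log2 fold change between M1-CM and Ctrl went from 0.73 to -0.07 for Cd274, from 0.55 to -0.01 for Cd47, from 0.23 to -0.38 for Cd276 and from 1.23 to 0.56 for Lgals9, while that of Nectin2 went to 0.68. None of these passed the threshold with or without the library. Nt5e was at 42.7, 26.3 and 35.8 CPM in Ctrl and at 59.6, 28.7 and 45.0 in M1-CM, and Pvr was at 75.5, 27.5 and 73.5 in Ctrl and at 39.9, 71.0 and 64.9 in M1-CM, so that both overlapped widely between the media.

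Culture as spheroids had a far larger effect. In WT cells, 7 of the 8 tested genes rose in 3D over 2D and 0 fell, where 44.3% of all 21367 genes tested were called, 22.2% up and 22% down. The median log2 fold change of the 8 genes was 1.19, against 0.002 for all genes tested. With library totals in place of TMM the median over all genes was -0.21, and the same 7 genes were called up. Markers of other cell types moved in the same comparison. Of 6 tested leukocyte markers 4 rose and 0 fell, among them Cd68 (1.34 to 4.55 CPM) and Lyz2 (0.89 to 2.73 CPM), and their sum went from 28.1 to 32.4 CPM in 2D WT to 42.4 to 46.7 CPM in 3D WT, with Adgre1 at 0 in both. Of 3 tested stromal markers Dcn (0.37 to 37.7 CPM) and Lum (0.082 to 6.87 CPM) rose and Pdgfrb fell (152 to 88.3 CPM), and their part in the result was not tested. Since these are bulk samples, fewer cells that use a gene and less RNA per cell cannot be told apart.

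Cd274 gave the largest of these changes. It had 31, 68 and 23 counts (0.60, 0.98 and 0.32 CPM) in 2D WT and 7.41, 7.24 and 8.52 CPM in 3D WT, a 12.2-fold rise (log2 fold change 3.61, SE 0.30, adjusted p = 4.6e-07). Every 3D library stood well above every 2D library, and 54.3% of all genes did not overlap between these groups. Of the other ligands, Pvr went from 37.4, 35.1 and 37.2 CPM to 186, 156 and 184 CPM (2.26, SE 0.10, adjusted p = 2.0e-09), so that its transcript reached the level of Cd47 per length. Lgals9 went from 4.74, 4.72 and 4.92 CPM to 10.7, 12.5 and 13.7 CPM (1.36, SE 0.16, adjusted p = 1.3e-05). Cd80, the only CD28 and CTLA-4 ligand of the set, went from 5.89, 7.73 and 6.44 CPM to 11.9, 15.0 and 13.6 CPM (1.01, SE 0.15, adjusted p = 7.8e-05). Nectin2 rose 1.76-fold and Cd47 1.74-fold (log2 fold changes 0.82, SE 0.12, and 0.80, SE 0.14). Cd276, which encodes B7-H3, did not pass the threshold, at 16.6, 16.5 and 16.2 CPM in 2D and 18.7, 16.3 and 19.7 CPM in 3D (0.15, SE 0.12, adjusted p = 0.36).

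On the adenosine side, Nt5e went from 10.1, 9.02 and 8.75 CPM in 2D WT to 59.0, 56.0 and 58.4 CPM in 3D WT, a 6.23-fold rise (log2 fold change 2.64, SE 0.17, adjusted p = 4.9e-08). Its libraries varied little within either culture form. Entpd1 had 0 counts in all 2D libraries and 7, 8 and 8 counts in 3D WT, too few for the filter, although the Wald test of DESeq2, run without it, called the rise. The 2D counts of 0 allow up to 3 counts per library.

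In Cxcl5-/- cells, 3D culture raised 4 of the 8 genes and lowered 1, where 57% of all genes were called (28.7% up and 28.2% down) and 64.8% did not overlap. Cd274 again rose most, from 0.52, 0.69 and 0.91 CPM to 11.96, 11.9 and 11.9 CPM, by 4.07 on the log2 scale (SE 0.30, adjusted p = 9.6e-08). Nt5e rose from 0.652, 0.885 and 1.19 CPM to 4.51, 2.95 and 4.37 CPM (2.12, SE 0.20), which left its 3D level below that of 2D WT. Cd47 rose from 91.0, 91.4 and 106 CPM to 188, 288 and 248 CPM (1.33, SE 0.14) and Pvr from 32.9, 31.5 and 35.1 CPM to 40.3, 52.5 and 46.3 CPM (0.48, SE 0.10, adjusted p = 0.0010). Cd80 went the other way, from 8.62, 9.28 and 8.74 CPM to 4.84, 3.50 and 4.20 CPM (-1.09, SE 0.15, adjusted p = 3.4e-05). Nectin2 (0.11, SE 0.12), Lgals9 (0.24, SE 0.16) and Cd276 (0.04, SE 0.12) did not pass the threshold, although Lgals9 passed it when 2D Cxcl5-/- replicate 2 was left out (0.41, adjusted p = 0.049).

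**Figure D2:**
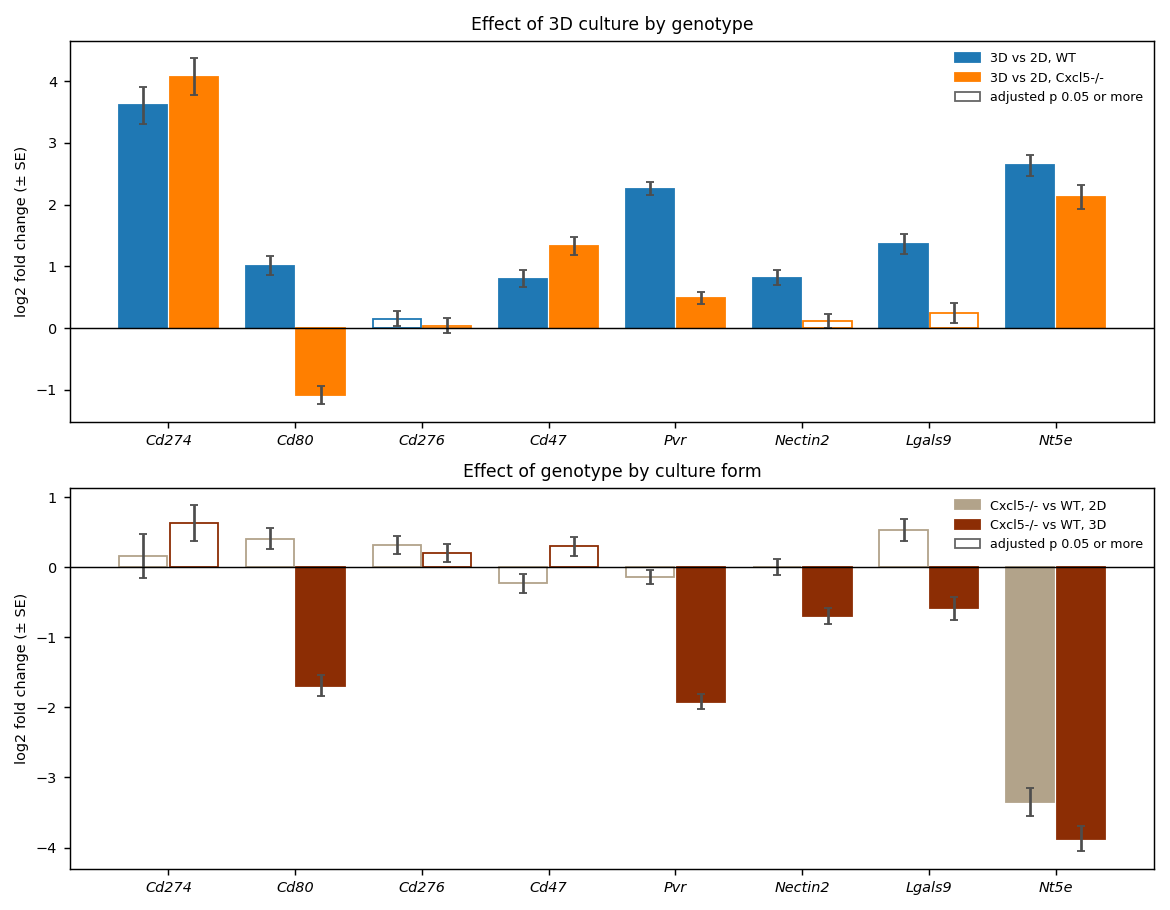
Log2 fold changes with their SE for 8 genes, upper panel 3D against 2D in WT and in Cxcl5-/- cells, lower panel Cxcl5-/- against WT in 2D and in 3D (linear axes, n = 3 per group). Filled bars passed an adjusted p under 0.05 and open bars did not. Cd274 rose in 3D by 3.61 in WT and 4.07 in Cxcl5-/-, Cd80 rose in WT and fell in Cxcl5-/-, and Nt5e was lower in Cxcl5-/- cells in both culture forms.

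The comparison of genotypes asked how the loss of Cxcl5 acts on the tumour cells. In 2D, 1 of the 8 genes was called, where 7.03% of all genes were (3.86% up and 3.17% down) and 26.1% did not overlap. This was Nt5e, at 10.1, 9.02 and 8.75 CPM in WT and at 0.652, 0.885 and 1.19 CPM in Cxcl5-/-, which is 10.2-fold lower (log2 fold change -3.35, SE 0.20, adjusted p = 2.2e-07). The tested ligands moved by 0.53 or less on the log2 scale, led by Lgals9 (4.74, 4.72 and 4.92 against 6.28, 8.57 and 5.90 CPM). Its log2 fold change was 0.53 (SE 0.16, adjusted p = 0.071 in edgeR's test and 0.028 in the Wald test of DESeq2).

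In 3D, 0 genes rose and 5 fell in Cxcl5-/- against WT, where 45% of all genes were called, 19.7% up and 25.3% down. Nt5e fell most, 14.6-fold, from 59.0, 56.0 and 58.4 CPM to 4.51, 2.95 and 4.37 CPM (-3.87, SE 0.18, adjusted p = 4.3e-09). Pvr fell 3.78-fold, from 186, 156 and 184 CPM to 40.3, 52.5 and 46.3 CPM (-1.92, SE 0.10, adjusted p = 1.2e-08), back to near its level in 2D. Cd80 fell 3.23-fold, from 11.9, 15.0 and 13.6 CPM to 4.84, 3.50 and 4.20 CPM (-1.69, SE 0.15, adjusted p = 1.2e-06). For these 3 genes the libraries of the genotypes did not overlap, which held for 54.4% of all genes tested. Smaller decreases were found for the second DNAM-1 and TIGIT ligand, Nectin2 (28.6, 22.3 and 27.0 against 15.1, 15.8 and 17.0 CPM, -0.70, SE 0.12, adjusted p = 0.00025), and for Lgals9 (10.7, 12.5 and 13.7 against 8.90, 8.69 and 6.96 CPM, -0.59, SE 0.16, adjusted p = 0.0083).

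The remaining 3 genes did not pass the threshold in 3D. Cd274 was at 7.41, 7.24 and 8.52 CPM in WT and at 11.96, 11.9 and 11.9 CPM in Cxcl5-/- (0.63, SE 0.26, adjusted p = 0.063), and the groups did not overlap, which held for 54.4% of all genes tested. It passed with the Wald test of DESeq2 (0.65, adjusted p = 0.025), without the filter on low counts (0.71, adjusted p = 0.036) and with only these 2 groups in the fit (0.66, adjusted p = 0.0027). Cd47 was at 176, 199 and 215 against 188, 288 and 248 CPM (0.29, SE 0.14, adjusted p = 0.099). It passed without the filter on low counts (0.38, adjusted p = 0.040) and when 3D Cxcl5-/- replicate 1 was left out (0.42, adjusted p = 0.0090). Cd276 was at 18.7, 16.3 and 19.7 against 18.6, 23.8 and 20.5 CPM (0.20, SE 0.12).

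The scaling mattered for this comparison. With TMM the median log2 fold change of all genes was -0.04, and with library totals it was 0.35. Under library totals the split of calls among the 8 genes was 3 up (Cd274, Cd47 and Cd276) and 3 down (Nt5e, Pvr and Cd80) in place of 0 up and 5 down, while over all genes 7671 were called up and 2445 down in place of 4218 up and 5397 down, and Nectin2 (-0.31, adjusted p = 0.054) and Lgals9 (-0.20, adjusted p = 0.33) were not called. The directions of Nt5e, Pvr and Cd80, and the calls on them, held under both. Of 5 tested epithelial markers, Krt8, Krt18 and Krt19 were called lower in 3D Cxcl5-/- and Krt7 was called higher (0.72 to 3.15 CPM). Sox9 was at 13.6 CPM in 3D WT and 20.2 CPM in 3D Cxcl5-/- (adjusted p = 0.11). Of 8 listed markers, 8 were above the floor in 3D WT and 5 in 3D Cxcl5-/-. Those that made this difference, Epcam, Cdh1 and Cldn4, had at most 4, 5 and 5 counts in any 3D WT library. The part of the epithelial markers in these differences was not tested.

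The interaction contrast, the genotype effect in 3D minus that in 2D, called 4 of the 8 genes, all downward, where 27.2% of all genes were called, 11.1% upward and 16.1% downward. These were Cd80 (-2.10, SE 0.21, adjusted p = 1.4e-05), Pvr (-1.78, SE 0.14, adjusted p = 2.4e-06), Lgals9 (-1.12, SE 0.23, adjusted p = 0.0027) and Nectin2 (-0.70, SE 0.16, adjusted p = 0.0063). For Pvr and Nectin2 the genotypes lay together in 2D and apart in 3D, and for Cd80 and Lgals9 the Cxcl5-/- mean was the higher one in 2D and the lower one in 3D. Nt5e was lower in Cxcl5-/- cells in both culture forms, and the difference between its effects did not pass the threshold (-0.52, SE 0.26, adjusted p = 0.16). Cd47 had a positive contrast (0.53, SE 0.20, adjusted p = 0.060). It passed with the Wald test of DESeq2 (0.53, adjusted p = 0.027) and without the filter on low counts (0.61, adjusted p = 0.036). The contrast of Cd47 also passed when 3D Cxcl5-/- replicate 1 was left out (0.63, adjusted p = 0.0070). With library totals the split was 1 up (Cd47, 0.92) and 3 down, while over all genes it was 4585 up and 1359 down in place of 2376 up and 3431 down, and Nectin2 was not called (-0.33, adjusted p = 0.18).

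The rescue experiment repeated the comparison of Cxcl5-/- and WT spheroids with 2 samples each. Here 5 of the 10 genes rose and 2 fell, where 41.9% of all 28730 genes tested were called, 17.6% up and 24.3% down. Pvr and Nt5e were again the 2 that fell. Pvr was at 223 and 222 CPM in WT and at 42.9 and 37.4 CPM in Cxcl5-/-, 5.53-fold lower (log2 fold change -2.47, SE 0.12, adjusted p = 1.3e-07). Nt5e was at 31.4 and 32.98 CPM in WT and at 8.86 and 9.08 CPM in Cxcl5-/-, 3.59-fold lower (-1.84, SE 0.29, adjusted p = 0.00040). Both genes separated the genotypes without overlap, which held for 80.9% of all genes with 2 samples a group.

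The 5 genes that rose were ligands. Cd274 was at 6.11 and 7.20 CPM in WT and at 18.3 and 20.3 CPM in Cxcl5-/- spheroids (1.54, SE 0.22, adjusted p = 0.00023). Cd80 went from 6.82 and 7.30 to 14.7 and 15.8 CPM (1.11, SE 0.22, adjusted p = 0.0019) and Cd276 from 14.1 and 16.3 to 32.7 and 32.3 CPM (1.10, SE 0.13, adjusted p = 4.7e-05). Cd47, the SIRPα ligand, went from 223 and 253 to 426 and 396 CPM (0.79, SE 0.12, adjusted p = 0.00027), and Lgals9 from 9.60 and 8.80 to 14.3 and 14.3 CPM (0.64, SE 0.15, adjusted p = 0.0065). The call on Lgals9 was lost without rescue WT replicate 2 (0.58, adjusted p = 0.059). Nectin2 was at 18.4 and 18.8 against 14.6 and 15.7 CPM (-0.29, SE 0.14, adjusted p = 0.10) and passed with the Wald test of DESeq2 (-0.39, adjusted p = 0.029), with its size factors (-0.39, adjusted p = 0.038) and with only these groups in the fit (-0.32, adjusted p = 0.025).

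Cd80 and Lgals9 thus moved in opposite directions in the 2 experiments. To test the difference, both tables were fitted together and the genotype effect of the rescue table was subtracted from that of the 2D and 3D table, a comparison added after the data had been seen. It called 5 of the 10 genes, where 8.99% of all 27239 genes were called, 3.39% upward and 5.59% downward. These were Cd80 (-2.79, SE 0.22, adjusted p = 4.9e-05), Nt5e (-2.02, SE 0.21, adjusted p = 0.00026), Lgals9 (-1.21, SE 0.21, adjusted p = 0.0049), Cd274 (-0.90, SE 0.18, adjusted p = 0.010) and Cd276 (-0.88, SE 0.19, adjusted p = 0.014). The calls on Cd274 and Cd276 were lost without rescue WT replicate 1 (-0.79, adjusted p = 0.078, and -0.78, adjusted p = 0.080) and without rescue Cxcl5-/- replicate 2 (-0.83, adjusted p = 0.070, and -0.90, adjusted p = 0.058), and that on Cd276 also without rescue Cxcl5-/- replicate 1 (-0.88, adjusted p = 0.063) and with library totals (-0.70, adjusted p = 0.092). Pvr, which fell in both, did not pass (0.56, SE 0.18, adjusted p = 0.078), but did with the Wald test of DESeq2 (0.66, adjusted p = 0.0075), with its size factors (0.66, adjusted p = 0.047) and without 3D Cxcl5-/- replicate 1 (0.65, adjusted p = 0.027). The Cxcl5 transcript was higher in the Cxcl5-/- spheroids of the 2D and 3D table and lower in those of the rescue table, and its part was not tested. Among the stromal markers, the genotype effects on Dcn and Lum were opposite in the 2 experiments (log2 fold changes -3.74 and -1.27 in the 2D and 3D table, 3.76 and 5.05 in the rescue table), whereas Pdgfrb, the most abundant of them in 3D, was higher in Cxcl5-/- in both (1.22 and 1.80). Their part was not tested.

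**Figure D3:**
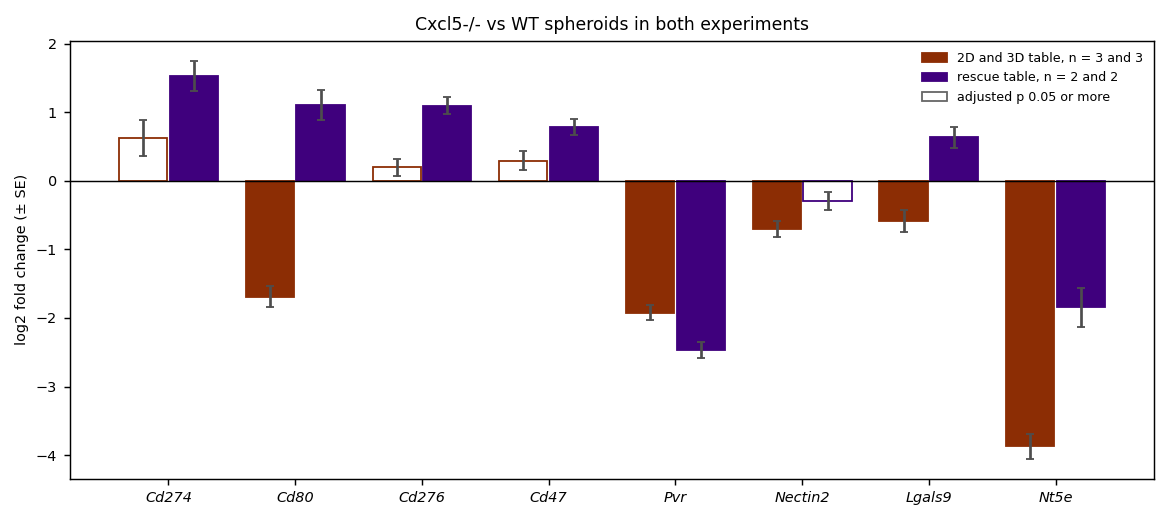
Log2 fold changes of Cxcl5-/- against WT spheroids with their SE for 8 genes in the 2D and 3D table (n = 3 per group) and in the rescue table (n = 2 per group), on a linear axis. Filled bars passed an adjusted p under 0.05. Pvr and Nt5e were lower in both, and Cd80 was at -1.69 in one and 1.11 in the other.

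Overexpression of Hif1α or Myc in Cxcl5-/- spheroids was compared with the 2 Cxcl5-/- samples of the same table. Hif1aOE raised 2 of the 10 genes and lowered 5, where 35.5% of all genes were called, 20.5% up and 15% down. Pvr went from 42.9 and 37.4 CPM to 110, 93.6 and 96.5 CPM (1.32, SE 0.11, adjusted p = 4.8e-06), under the 223 and 222 CPM of WT, and Nt5e went from 8.86 and 9.08 CPM to 13.1, 22.3 and 15.9 CPM (0.93, SE 0.26, adjusted p = 0.016). The call on Nt5e was lost without Cxcl5-/- replicate 1 (adjusted p = 0.085) or replicate 2 (adjusted p = 0.077) and under library totals (0.69, adjusted p = 0.057), which made the split 1 up and 5 down.

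The 5 genes that fell with Hif1aOE were ligands. This comparison shares its Cxcl5-/- samples with that of Cxcl5-/- and WT spheroids above. Cd274 was at 10.9, 7.95 and 9.97 CPM (-1.004, SE 0.19, adjusted p = 0.0016), Cd80 at 6.76, 5.26 and 6.90 CPM (-1.27, SE 0.19, adjusted p = 0.00031) and Lgals9 at 6.24, 6.24 and 5.57 CPM (-1.25, SE 0.14, adjusted p = 3.1e-05). Cd276 was at 14.6, 15.1 and 17.0 CPM (-1.06, SE 0.11) and Cd47 at 234, 202 and 229 CPM (-0.89, SE 0.10). All Hif1aOE libraries lay below both Cxcl5-/- libraries for these 5 genes, and 56.7% of all genes did not overlap between the groups.

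MycOE raised 1 of the 10 genes and lowered 5, where 39.6% of all genes were called (21.6% up and 18% down) and 58.5% did not overlap. Pvr was the gene that rose, to 60.8, 72.1 and 70.4 CPM (0.76, SE 0.11, adjusted p = 0.00016). Cd80 fell 6.49-fold, to 1.82, 2.91 and 2.31 CPM (-2.70, SE 0.20, adjusted p = 1.6e-06), and Nt5e fell 6.22-fold, to 0.825, 1.65 and 1.82 CPM (-2.64, SE 0.28, adjusted p = 1.8e-05). Both were then at the lowest mean level of the 4 rescue groups. Cd47 fell to 137, 165 and 153 CPM (-1.44, SE 0.10) and Cd276 to 13.5, 13.8 and 11.8 CPM (-1.32, SE 0.11). Cd274 stayed at 14.3, 14.4 and 21.5 CPM, which overlapped the 18.3 and 20.3 CPM of Cxcl5-/- (-0.20, SE 0.19, adjusted p = 0.42). Lgals9 did not pass (12.8, 11.7 and 9.75 CPM, -0.33, SE 0.14, adjusted p = 0.078), except when MycOE replicate 1 was left out (-0.41, adjusted p = 0.043) or with library totals (-0.67, adjusted p = 0.0012).

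MycOE against Hif1aOE, a direct comparison of the lines, called 2 genes up and 4 down, where 19.3% of all genes were called (9.54% up and 9.73% down) and 31.3% did not overlap. Nt5e was 11.9-fold lower in MycOE (-3.57, SE 0.27, adjusted p = 3.9e-06), with 0.825 to 1.82 CPM against 13.1 to 22.3 CPM. Cd80 (-1.43, SE 0.18), Pvr (-0.56, SE 0.093) and Cd47 (-0.55, SE 0.094) were lower as well. Cd274 (0.80, SE 0.18, adjusted p = 0.0077) and Lgals9 (0.92, SE 0.13, adjusted p = 0.00036) were higher in MycOE. Nectin2 varied least of the 8 more abundant genes in this table (1.23-fold between its highest and lowest group mean), at 15.0, 16.8 and 13.9 CPM in MycOE and 16.2, 20.4 and 17.3 CPM in Hif1aOE (-0.24, SE 0.11, adjusted p = 0.17). With library totals Nectin2 (-0.35, adjusted p = 0.030) and Cd276 (-0.38, adjusted p = 0.044) were called lower in MycOE as well. Over all genes, that scaling called 1982 up and 3504 down in place of 2742 up and 2796 down, and the median went from -0.01 to -0.13.

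**Figure D4:**
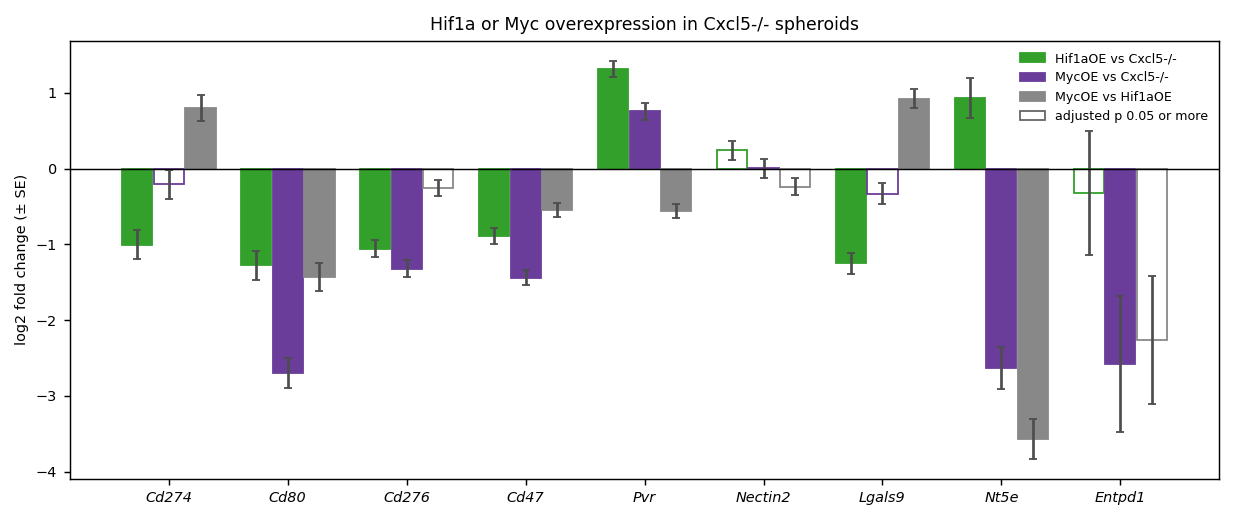
Log2 fold changes with their SE (linear axis) for 9 genes in Hif1aOE against Cxcl5-/-, MycOE against Cxcl5-/- and MycOE against Hif1aOE spheroids (n = 2 for Cxcl5-/-, n = 3 for each overexpression line, all in the Cxcl5-/- background). Filled bars passed an adjusted p under 0.05. Nt5e was at 0.93 with Hif1aOE and at -2.64 with MycOE, Pvr was above 0 in both, and Entpd1 rests on 0 to 16 counts per library.

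Pdcd1lg2 and Entpd1 were scarce everywhere. Pdcd1lg2, the PD-L2 gene, had 0 counts in 18 of the 21 libraries of the first 2 tables, with 11 counts in Ctrl replicate 1 and 4 and 3 counts in a 3D WT and a 3D Cxcl5-/- library. In the rescue table it had between 0 and 21 counts, and none of its comparisons passed the threshold. Entpd1, the CD39 gene, had 41 and 41 counts in rescue WT, 8 and 16 in Cxcl5-/-, 10, 9 and 13 in Hif1aOE and 0, 2 and 4 in MycOE. It passed for MycOE against Cxcl5-/- (-2.58, SE 0.90, adjusted p = 0.041), and for Cxcl5-/- against WT with only these groups in the fit (-1.88, adjusted p = 0.016; -1.86, adjusted p = 0.11 with all groups). The first call was lost without either Cxcl5-/- library, without MycOE replicate 1 or 2, without the filter on low counts (adjusted p = 0.069) and with a replicate block (adjusted p = 0.056). In rescue WT, where Entpd1 was highest, 11 of 13 leukocyte and 7 of 7 stromal and endothelial markers were above the floor, against 6 of 13 and 4 of 7 in rescue Cxcl5-/-. The summed leukocyte markers were at 44.6 to 44.8 CPM in WT and 35.4 to 36.0 CPM in Cxcl5-/-, whereas the summed stromal markers were lower in WT (63.0 to 67.3 CPM) than in Cxcl5-/- (335 to 345 CPM), carried by Pdgfrb, Dcn and Lum, and the part of this in the Entpd1 level was not tested.

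Further genes of extracellular nucleotide and adenosine handling gave a mixed picture. Of 26 listed genes, 15 were tested in the 2D and 3D table. In 3D WT over 2D WT, 6 rose and 4 fell (median log2 fold change 0.009), where 22.2% of all genes were called up and 22% down. Ada, which removes adenosine by deamination, fell from 3.61 to 0.83 CPM (-2.11, SE 0.22, adjusted p = 3.1e-06), Enpp1, which also makes AMP from extracellular ATP, rose from 2.37 to 6.61 CPM (1.48, SE 0.13, adjusted p = 6.4e-07), and the lysosomal Entpd4 rose from 12.9 to 31.7 CPM (1.30, SE 0.11). In 3D Cxcl5-/- against 3D WT, 6 rose and 4 fell (median -0.08), where 19.7% of all genes were called up and 25.3% down. Enpp1 was opposite to Nt5e there, with a mean of 65.9 against 6.61 CPM (3.31, SE 0.13, adjusted p = 8.9e-10), and the nucleoside transporter Slc29a3 (1.83, SE 0.28) and Ada (1.31, SE 0.22) were higher too.

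In the rescue table, 9 of 25 tested genes of this list rose and 8 fell in Cxcl5-/- against WT (median -0.70, against -0.30 for all genes). Of all genes, 17.6% were called up and 24.3% down there. Slc29a3 rose from 3.47 to 13.1 CPM (1.92, SE 0.38, adjusted p = 0.0022) and the nucleotide receptor gene P2ry2 fell from 2.59 to 0.78 CPM (-1.72, SE 0.28). Hif1aOE lowered Enpp1 from 39.8 to 7.33 CPM (-2.44, SE 0.16, adjusted p = 1.2e-06), opposite to its effect on Nt5e. With MycOE, 11 of 25 rose and 2 fell, where 21.6% of all genes were called up and 18% down. The list was led by P2ry2 (0.78 to 9.88 CPM, 3.66, SE 0.28, adjusted p = 1.8e-06). Enpp1 was 3.09 higher on the log2 scale in MycOE than in Hif1aOE (62.5 against 7.33 CPM), while Nt5e was lower.

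**Figure D5:**
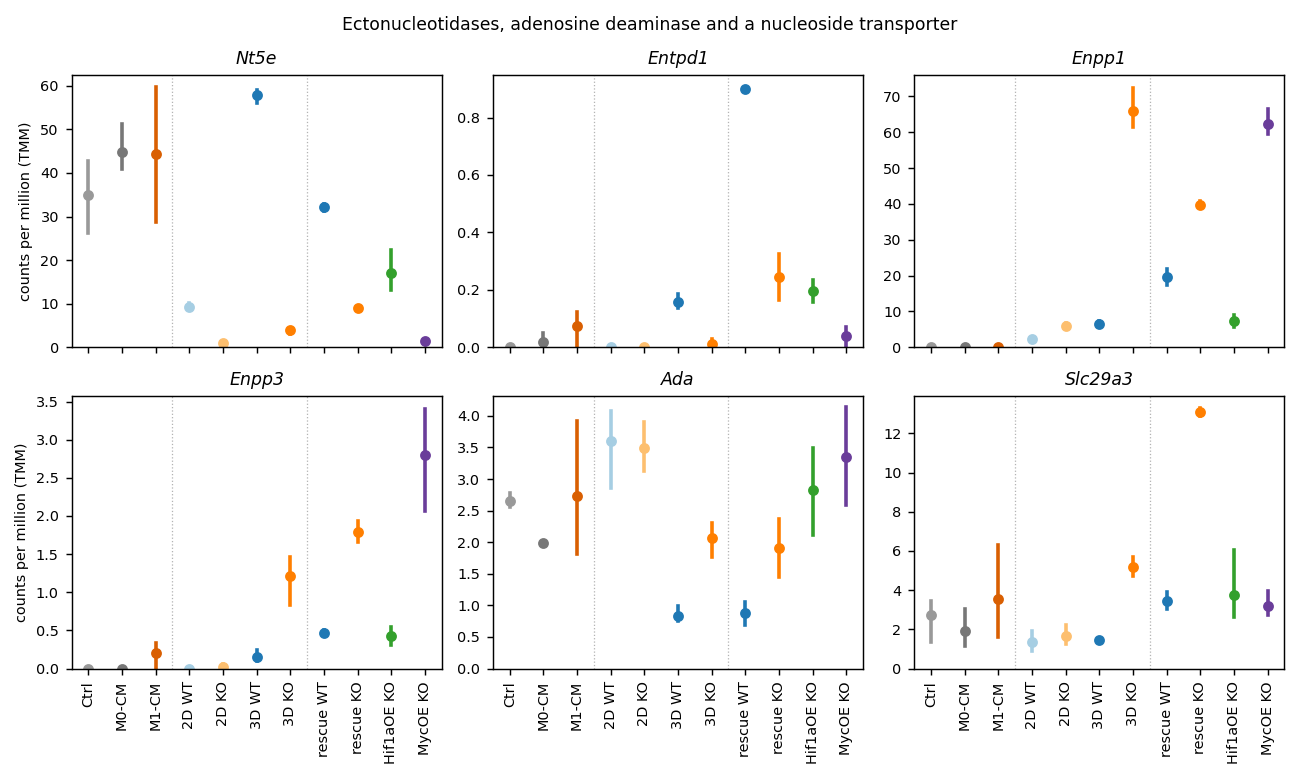
CPM after TMM scaling (linear axes from 0) of 6 genes of adenosine handling by group, where points are group means and lines run from the lowest to the highest library (n = 2 in rescue WT and rescue KO, n = 3 in the others). KO stands for Cxcl5-/-, and dotted lines separate the 3 tables. Nt5e was high where Enpp1 was low in 3D WT (57.8 against 6.61 CPM), and the reverse held in 3D KO (3.94 against 65.9 CPM).

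Other checkpoint and costimulatory ligands were counted from a list of 25 genes. In WT, 10 of the 15 tested rose in 3D and 2 fell (median log2 fold change 0.95), where 22.2% of all genes were called up and 22% down. The 4-1BB ligand gene Tnfsf9 rose from 2.08 to 16.2 CPM (2.95, SE 0.21, adjusted p = 1.3e-07), the ICOS ligand gene Icosl from 0.55 to 3.47 CPM (2.65, SE 0.31) and H2-T23, which encodes the NKG2A ligand Qa-1, from 18.2 to 96.1 CPM (2.40, SE 0.15, adjusted p = 3.9e-08). In 3D Cxcl5-/- against 3D WT, 2 rose and 6 fell (median -0.25), where 19.7% of all genes were called up and 25.3% down. The NKG2D ligand gene Raet1e (38.1 to 10.6 CPM, -1.84, SE 0.10, adjusted p = 1.8e-08), Lgals3 (-1.54, SE 0.11) and Tnfsf9 (-1.44, SE 0.20) fell. In the rescue experiment, 4 of 22 rose and 10 fell in Cxcl5-/-, where 17.6% of all genes were called up and 24.3% down. Raet1e (-1.44, SE 0.13) and Lgals3 (-1.46, SE 0.16) were again lower, while Tnfsf18, the GITR ligand gene, went from 0.13 to 8.52 CPM (5.99, SE 0.88, adjusted p = 0.00061). No gene of this list was called in the conditioned media, where at most 0.0156% of all genes were.

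Genes of the IFNγ pathway and of transcription factors named for these promoters were counted from a list of 18. In 3D WT over 2D WT, 15 rose and 0 fell (median 0.62), where 22.2% of all genes were called up and 22% down. Among those that rose were Stat2 (6.99 to 35.0 CPM, 2.33, SE 0.12, adjusted p = 6.7e-09), Irf9 (2.05, SE 0.13) and Nlrc5 (2.03, SE 0.077). In Cxcl5-/- cells 8 rose and 4 fell in 3D, with Nlrc5 at 2.26, where 28.7% of all genes were called up and 28.2% down. Between the genotypes in 3D, 3 rose and 8 fell in Cxcl5-/-, where 19.7% of all genes were called up and 25.3% down. The decreases were led by Myc (35.0 to 10.4 CPM, -1.75, SE 0.12, adjusted p = 8.9e-08) and Hif1a (369 to 160 CPM, -1.21, SE 0.097, adjusted p = 4.1e-07). None of the 18 was called for M1-CM against Ctrl, where their median was 0.40 and 0.0156% of all genes were called.

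Of 9 receptor genes that leukocytes use for these ligands, 3 were tested in the first 2 tables and 6 in the rescue table. Pdcd1, the PD-1 gene, had 0 counts in all libraries of the first 2 tables. Cd28, which encodes a T cell receptor of CD80, was nevertheless counted in every library, with 12.8 to 15.3 CPM in 2D WT, 24.0 to 40.7 CPM in 3D WT, 68.9 to 80.7 CPM in 3D Cxcl5-/- and 214 to 217 CPM in rescue Cxcl5-/-. It was 2.82 higher on the log2 scale in 3D than in 2D Cxcl5-/- cells (SE 0.17, adjusted p = 1.1e-08) and 2.72 lower in MycOE than in Cxcl5-/- spheroids (32.6 against 215 CPM). Cd3e, a defining T cell marker, was at 0 in the 2D and 3D table, and in the rescue table it had 22 counts in each WT library, 0 to 10 counts in Hif1aOE and 0 in Cxcl5-/- and MycOE. Havcr2, the TIM-3 gene, fell from 8.02 to 1.69 CPM in 3D Cxcl5-/- against WT (-2.25, SE 0.21, adjusted p = 1.4e-06) and from 11.3 to 2.59 CPM in the rescue table (-2.12, SE 0.34).

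Within the set, patterns over the 31 libraries were compared by Pearson's r of log2 CPM centred on each table, a description over libraries that share tables and scaling. Cd274 was most like Cd47 (r = 0.72), Nt5e most like Pvr (0.70), and Pvr was also like Nectin2 (0.67). Cd276 and Pvr had the lowest value (-0.27), and Cd274 and Cd80 were near 0 (-0.034). Among 10727 genes tested in all tables with a mean of at least 5 CPM, Kdm5b (0.97) was most similar to Cd274, Nlgn2 (0.98) to Cd47, Pcgf5 (0.96) to Pvr, and Etl4 (0.90) to Nt5e. Cd80 (Fnbp1l, 0.86), Cd276 (St3gal2, 0.89) and Lgals9 (mt-Rnr2, 0.89) had less similar partners.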

How the data were processed

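RNA of 31 Panc02 samples was sequenced in 3 experiments. Per the labels and the methods of the study, the authors made stranded total RNA libraries, aligned paired reads with HISAT2 to the mouse genome (mm10) and counted reads per gene with StringTie. The deposited values are raw counts per gene, not normalized, with 41542533 to 78498230 counts per sample. Rows with a gene identifier but no symbol (1542 in the 2D and 3D table and 310 in the rescue table) were kept. Cell line names in the labels of the rescue samples differ between samples, and the samples were grouped by title.

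Each table was fitted over all its groups with edgeR 4.0.16 in R 4.3.3 (filterByExpr by group, TMM scaling, quasi-likelihood test, 2-sided), and p-values were adjusted by Benjamini-Hochberg over all genes tested, with a threshold of 0.05. The SE is the absolute log2 fold change divided by the square root of F. Levels are CPM of the TMM-scaled library, per kilobase of the joined exons where genes are compared. The model was tested on simulated data in which few genes changed, so that test cannot speak to the scaling where many genes change. Alternatives were the Wald test of DESeq2 1.42.0, its size factors, library totals, no filter, a replicate block, only the groups compared and each sample left out. Counting error alone limits values of a few counts. The named genes are the 10 members and, from each list, the called genes of largest change (4 at most, each averaging 50 counts or more). Adgre1, Cd3e, Pdcd1, Sox9 and the keratins were named after their values were seen, and a few genes that the rule names are not reported here. The members and lists were chosen with earlier results of these data known.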

Additional observations from a re-analysis of the deposited data

Results flagged for a closer look

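The effect of the Cxcl5 deletion differed between 2D and 3D culture for 4 genes in the interaction test (edgeR, adjusted over all genes): Cd80 (-2.10 on the log2 scale, adjusted p = 1.4e-05), Pvr (-1.78, adjusted p = 2.4e-06), Lgals9 (-1.12, adjusted p = 0.0027) and Nectin2 (-0.70, adjusted p = 0.0063). The effect in spheroids differed between the 2 experiments for 5 genes, in a comparison added after the data had been seen: Cd80 (-2.79, adjusted p = 4.9e-05), Nt5e (-2.02, adjusted p = 0.00026), Lgals9 (-1.21, adjusted p = 0.0049), Cd274 (-0.90, adjusted p = 0.010) and Cd276 (-0.88, adjusted p = 0.014). Nt5e was lower in Cxcl5-/- spheroids of both experiments, and Cd80 and Lgals9 were lower in one and higher in the other.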

How the results depend on the processing

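Most of the values kept their direction and side of the threshold under the alternatives. The Wald test of DESeq2 called 1 member (Nectin2) between M1-CM and Ctrl, where it called 74 up and 31 down among all genes. Between the genotypes in 2D it called 2 members, with 1177 up and 861 down among all genes. Requiring an absolute log2 fold change above 1 left 3 genes between the genotypes in 3D, 2 between MycOE and Hif1aOE and 3 between the experiments. Leaving out each sample gave 3 to 6 genes between the experiments, with 3 without rescue WT replicate 1 or rescue Cxcl5-/- replicate 2. Under library totals the median over all genes went from 0.11 to 0.26 for 3D over 2D in Cxcl5-/-, from -0.05 to 0.32 for the interaction, from 0.16 to 0 for Hif1aOE and from 0.11 to -0.11 for MycOE. The causes were not tested.

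The sign changed for values that had not passed the threshold. Pvr for M1-CM against Ctrl was 0.0053 with DESeq2 size factors, 0.028 with library totals and 0.14 with a replicate block. Nt5e for M1-CM against M0-CM was 0.000587, 0.00634, 0.067 and 0.016 with the Wald test, size factors, library totals and only the groups compared. With library totals Cd47 was -0.019 for M0-CM against Ctrl, and Cd276 was -0.0731 for 3D over 2D in WT and 0.27 for the interaction. Nectin2 for MycOE against Cxcl5-/- was -0.017 (Wald test), -0.025 (size factors) and -0.34 (library totals, adjusted p = 0.030).

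With each sample left out in turn, these uncalled values also changed sign and are given from their lowest to their highest. For M1-CM against Ctrl they were Pvr (-0.34 to 0.21), Cd274 (-0.071 to 1.06), Cd47 (-0.011 to 0.84) and Cd276 (-0.38 to 0.49). For M0-CM against Ctrl they were Cd274 (-0.046 to 0.31), Cd47 (-0.16 to 0.34) and Cd80 (-0.089 to 0.20). For M1-CM against M0-CM they were Nt5e (-0.28 to 0.23), Cd274 (-0.20 to 0.93) and Cd47 (-0.053 to 0.76). For 3D Cxcl5-/- against 2D Cxcl5-/- it was Cd276 (-0.058 to 0.12). For 2D Cxcl5-/- against 2D WT they were Nectin2 (-0.067 to 0.076) and Cd274 (-0.15 to 0.68). For the interaction it was Cd274 (-0.075 to 0.75). For Hif1aOE against Cxcl5-/- they were Pdcd1lg2 (-0.20 to 1.83) and Entpd1 (-0.71 to 0.25). For MycOE against Cxcl5-/- they were Nectin2 (-0.065 to 0.065) and Pdcd1lg2 (-0.72 to 1.32). For MycOE against Hif1aOE it was Pdcd1lg2 (-1.10 to 0.021). For the difference between experiments it was Pdcd1lg2 (-2.92 to 3.86).

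The replicate numbers were not used as pairs in the main fit. Deviations of same-numbered samples had mean correlations of 0.037, 0.025 and 0.004 in the 3 tables. Single pairs ran from -0.24 to 0.36 in the conditioned media, so these means cannot settle whether the samples were paired. With a replicate block, the interaction called 5 genes (with Cd47, 0.52), MycOE against Cxcl5-/- called 5 (without Entpd1), and Pdcd1lg2 turned to 0.75 for MycOE against Cxcl5-/- and 0.066 against Hif1aOE. Pdcd1lg2 and Entpd1 are limited by their counts.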
